A study of Mus musculus with 31 samples.

Results

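The genes described are 10 components of insulin receptor signaling and its FoxO feedback arm: the receptor Insr, the substrates and adaptors Irs1, Irs2, Gab1 and Shc2, the kinase components Pik3r1 and Akt2, the transcription factors Foxo1 and Foxo3, and the FoxO target Igfbp1. Each has a row in both deposited count tables, of 35275 and 54532 mouse genes. The series holds 31 bulk RNA-seq libraries from C57BL/6N mice in 8 groups. In the insulin experiment, wild-type (WT) mice and mice without the nuclear receptor ERRα (knockout, ERRα-/-) went 12 h overnight without food, were injected into the peritoneum with saline or with insulin at 1 unit/kg, and gave livers 4 h later. These livers make 4 groups: WT saline (n = 4), WT insulin (n = 4), ERRα-/- saline (n = 4) and ERRα-/- insulin (n = 3, replicates 1, 2 and 4). The second experiment took liver and skeletal muscle from uninjected mice on a standard diet, either WT or ERRα3SA, a knock-in that replaces 3 serines of ERRα by alanine, with n = 4 in each of the 4 groups. The methods give male littermates of 2 to 3 months for mice in general, and the labels name neither sex nor age. The knockout and the knock-in are present in every cell of the animal, so liver and muscle were not altered alone.

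Insulin binds its receptor on the cell surface, and the activated receptor phosphorylates docking proteins such as IRS1 and IRS2, which recruit phosphoinositide 3-kinase and lead to activation of AKT. AKT phosphorylates FoxO transcription factors and keeps them out of the nucleus. In fasting liver, nuclear FoxO activates genes such as Igfbp1, Irs2 and Insr, so a loss of insulin signaling raises the abundance of its own receptor and substrate. Igfbp1 encodes a secreted protein that binds insulin-like growth factors, and its transcript is a classic insulin-repressed product of hepatocytes.

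Library totals ran from 35871419 to 48317108 counts in the insulin experiment and from 20481405 to 33412022 counts in the ERRα3SA experiment. Levels are given as CPM, the counts scaled to a common library total with factors that balance library composition. Of the 3 libraries set apart by their mitochondrial share, ERRα3SA muscle replicate 1 had 19.3% of its counts on mitochondrial genes against 9.15 to 9.85% in the other 3 of its group. Its summed level of 6 skeletal muscle markers was 178900 CPM, against 81580 to 111200 CPM in the rest of its group and 107800 to 121000 CPM in WT muscle. The lowest sum, 81580 CPM, was that of ERRα3SA muscle replicate 4. WT insulin liver replicate 2 had 1.88% on mitochondrial genes against 3.88 to 4.17% in its group, and ERRα-/- saline liver replicate 3 had 3.91% against 3.16 to 3.21%. ERRα3SA liver replicate 4 held 55920 CPM of 6 hepatocyte markers, against 88310 to 102300 CPM in the other 3 of its group.

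Esrra, the gene for ERRα, checked the genotype labels. Its level was 32.3, 51.3, 42.7 and 40.5 CPM in WT saline livers and 1.63, 0.703, 1.15 and 1.04 CPM in ERRα-/- saline livers (log2 fold change −5.21, SE 0.24, adjusted p = 2.58e-06). With insulin it was 53.7, 96.4, 56 and 59 CPM in WT and 0.833, 0.576 and 0.298 CPM in ERRα-/- livers (log2 fold change −6.86, SE 0.37, adjusted p = 3.55e-05). Every ERRα-/- liver lay far below every WT liver. In ERRα3SA mice, which keep the gene, Esrra read 27.7, 27.1, 28.2 and 29.4 CPM in WT liver and 29.4, 25.4, 21.1 and 19.2 CPM in ERRα3SA liver. In muscle it read 90.2, 82.6, 66.9 and 78 CPM in WT and 24.3, 133, 127 and 94.5 CPM in ERRα3SA, where replicate 1 was the lowest and the groups overlapped. Counts per gene do not show the serine changes, so the ERRα3SA labels were not checked. The 6 hepatocyte markers summed to at least 55920 CPM in each liver and at most 18.64 CPM in each muscle, with Hnf4a at 0 counts in all 8 muscles. The 6 skeletal muscle markers summed to at least 81580 CPM in each muscle and at most 78.09 CPM in each liver.

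A set of 3 genes known to respond to insulin in liver was read as a check of the injections: the gluconeogenic genes G6pc and Pck1, which insulin represses, and Srebf1, which it induces. G6pc, the glucose-6-phosphatase gene, was 250.3, 228, 293 and 255 CPM in WT saline and 437, 596, 269 and 306 CPM in WT insulin livers (log2 fold change 0.65, SE 0.23, adjusted p = 0.165). ERRα-/- livers held 199, 343, 393 and 229.6 CPM with saline and 370.2, 646 and 527 CPM with insulin (log2 fold change 0.82, SE 0.25, adjusted p = 0.114). In both genotypes the insulin libraries reached higher G6pc levels than the saline libraries, and each insulin group overlapped its saline group. Pck1 averaged 4286 ± 397 (SD) CPM in WT saline and 3140 ± 557 CPM in WT insulin livers (log2 fold change −0.45, SE 0.16, adjusted p = 0.165). In ERRα-/- livers it averaged 4535 ± 448 CPM with saline and 5379 ± 282 CPM with insulin (log2 fold change 0.24, SE 0.13, adjusted p = 0.364). For Srebf1 the log2 fold change was −0.18 ± 0.31 (adjusted p = 0.815) in WT and −0.77 ± 0.19 (adjusted p = 0.056) in ERRα-/- livers. None of the 3 passed the test in either genotype by edgeR. At an unadjusted p under 0.05 the count was 2 in WT (G6pc, Pck1) and 2 in ERRα-/- (G6pc, Srebf1). DESeq2 called 1 in WT (Pck1) and 2 in ERRα-/- (G6pc, Srebf1).

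Among the members in the WT saline livers, Igfbp1 had the highest level per kb of exon, 98 ± 33.9 (SD) CPM per kb. Akt2 followed at 18.7 ± 0.981 CPM per kb and Insr at 16.9 ± 1.03 CPM per kb, with overlapping replicates. Below them came Foxo3 at 12.9 ± 1.29, Pik3r1 at 10.8 ± 0.644, Foxo1 at 7.65 ± 1.44 and Irs2 at 4.63 ± 0.841 CPM per kb, each apart from its neighbour in the order. Gab1 at 2.68 ± 0.306 and Irs1 at 2.42 ± 0.380 CPM per kb overlapped each other. Shc2 was near 0 in liver, with 0, 8, 5 and 5 counts in WT saline, 23, 11, 5 and 3 in WT insulin, 1, 7, 1 and 9 in ERRα-/- saline and 21, 5 and 0 in ERRα-/- insulin livers. It therefore failed the filter on low counts in 3 of the 4 pairwise liver comparisons of that experiment, and its single fitted value there was −0.28 ± 1.19 (adjusted p = 0.962) between genotypes with insulin. The level order kept Igfbp1 first and Shc2 last in each of the 6 liver groups.

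**Figure D1:**
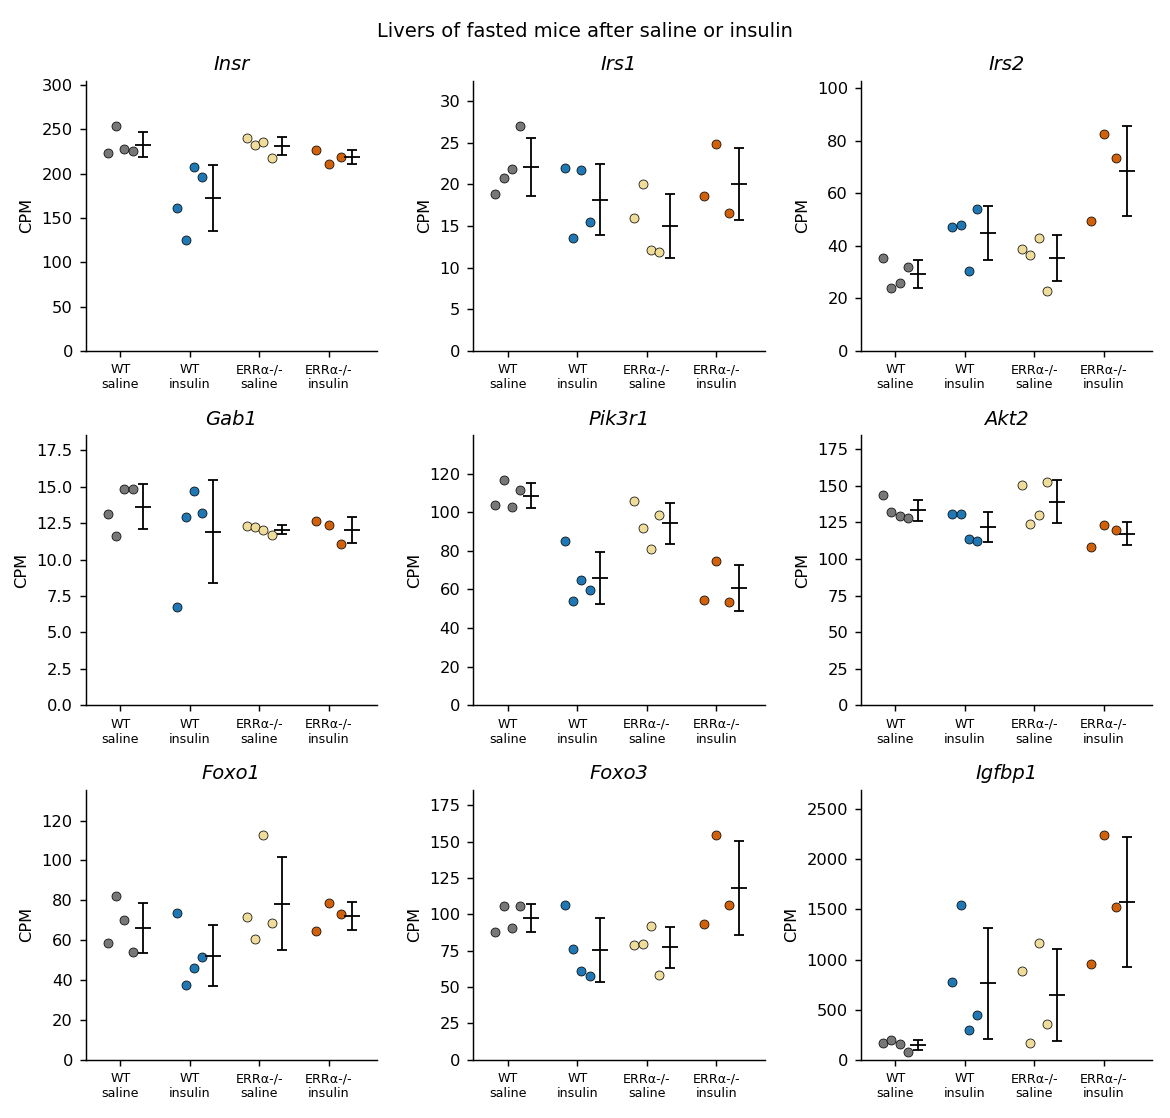
Level of 9 member genes (CPM) in each liver of the insulin experiment, one point per library, with the group mean and SD beside the points. Shc2 is left out because its counts are near 0. The Igfbp1 points of the 4 WT saline livers lie below all 4 WT insulin points, and the Pik3r1 points of both insulin groups lie below their saline groups.

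Insulin was compared with saline within each genotype to ask which components respond after 4 h, and whether that response needs ERRα. In WT liver 2 of 9 tested members passed an adjusted p under 0.05 by edgeR, Igfbp1 upward and Pik3r1 downward, while 3.16% of all genes tested did (425 of 13463). In ERRα-/- liver 2 of 9 passed, Irs2 upward and Pik3r1 downward, against 2.91% of all genes (398 of 13684). DESeq2 called 3 members in each genotype, adding Irs2 in WT and Foxo3 in ERRα-/- liver, beside 942 of 13463 and 1013 of 13684 genes. A second criterion takes the study's thresholds, an unadjusted p under 0.05 together with a change of 1.2-fold or more in either direction. The study applied them with DESeq2, and the counts here use edgeR unless DESeq2 is named. It was met by 4 members in WT liver (Insr, Irs2, Pik3r1, Igfbp1) and 4 in ERRα-/- liver (Irs2, Pik3r1, Foxo3, Igfbp1), where 17.2% and 17.2% of all genes met it. With DESeq2 it was met by the same 4 in WT and by 3 in ERRα-/- liver (Irs2, Pik3r1, Foxo3), without Igfbp1. In each further comparison of genotypes and in both interactions, the members meeting this criterion were the same with DESeq2 and edgeR. The shares of members in both insulin comparisons are above those of all genes, for members chosen with earlier results of these data known. For the interaction of genotype and insulin, edgeR called 0 of 10 members and 0% of all genes (0 of 14670), DESeq2 called 0 members and 20 genes, and 2 members and 1289 genes had an unadjusted p under 0.05. The criterion was met there by 2 members, Irs1 and Foxo3, and by 8.79% of all genes. Leaving out ERRα-/- saline replicate 3 or 4, ERRα-/- insulin replicate 2, WT saline replicate 4 or WT insulin replicate 2 left Foxo3 as the 1 member meeting it. Without ERRα-/- insulin replicate 2, the members meeting the criterion for insulin in ERRα-/- liver were 2, Irs2 and Pik3r1.

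The receptor gene Insr (ENSMUSG00000005534, chromosome 8, 3122061 to 3279617 on the minus strand, mm10) was 224, 254, 228 and 225 CPM in WT saline livers and 162, 125, 207 and 196 CPM in WT insulin livers. All 4 insulin libraries lay below all 4 saline libraries, with replicate 2 the lowest, and the criterion was met while the adjusted test was not passed (log2 fold change −0.43, SE 0.16, adjusted p = 0.181). Without that library, the one with few mitochondrial counts, the log2 fold change was −0.31. ERRα-/- livers had Insr at 239.9, 232, 236 and 217 CPM with saline and 227, 211 and 219 CPM with insulin (log2 fold change −0.08, SE 0.10, adjusted p = 0.746). These groups overlapped. The interaction of genotype and insulin was 0.36 ± 0.19 (SE) on the log2 scale with adjusted p = 0.611, and 0.23 without WT insulin replicate 2.

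Irs2 (ENSMUSG00000038894), one of the main substrates of the receptor in liver, stood at 35.4, 23.9, 25.9 and 31.9 CPM in WT saline and 47.1, 47.9, 30.2 and 54.1 CPM in WT insulin livers. Of the insulin libraries, 3 lay above all saline libraries and replicate 3 fell within the saline range. The fit gave log2 fold change 0.61, SE 0.19, adjusted p = 0.122. With DESeq2 in place of edgeR the adjusted p was 0.0384, and without WT insulin replicate 3 it was 0.0355. Without ERRα, Irs2 was 38.8, 36.6, 43.1 and 22.9 CPM with saline and 49.3, 82.5 and 73.4 CPM with insulin. The insulin libraries all lay above the saline libraries, and Irs2 rose 1.93-fold (log2 fold change 0.95, SE 0.22, adjusted p = 0.0466). This call was lost without ERRα-/- saline replicate 1, 2 or 4 (adjusted p = 0.0662, 0.0707 and 0.065) and without ERRα-/- insulin replicate 1, 2 or 4 (adjusted p = 0.0551, 0.223 and 0.163). The difference between the insulin responses of the genotypes was 0.34 ± 0.31 (SE) on the log2 scale with adjusted p = 0.78.

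The promoter of Irs2 is shown because the gene is a known FoxO target and rose in ERRα-/- liver. It covers 250 bases before to 50 after the start in RefSeq (build GRCm38.p6, chr8:11008880-11009179, minus strand), and the capitals mark the reverse complement of CAAAACA, a FoxO motif variant, which begins 37 bases before the start.
Irs2 promoter: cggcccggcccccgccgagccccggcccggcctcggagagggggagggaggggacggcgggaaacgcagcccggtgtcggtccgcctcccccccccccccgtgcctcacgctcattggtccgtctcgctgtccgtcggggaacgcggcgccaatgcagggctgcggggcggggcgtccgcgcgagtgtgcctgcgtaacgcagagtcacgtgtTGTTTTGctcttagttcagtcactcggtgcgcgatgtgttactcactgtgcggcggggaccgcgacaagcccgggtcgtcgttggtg
RefSeq promoters were found for 9 of the 10 members, 14 promoters in all, with none for Insr. They were searched on both strands for GTAAACA, a FoxO motif, for its variant CAAAACA, which some FoxO sites hold, and for AAGGTCA, the ERR half-site. The letters CAAAACA occurred in the promoters of Irs2, Igfbp1, Irs1 (2 matches) and Gab1, and 6.28% of all 32851 RefSeq promoters of this length hold it. GTAAACA, in 3.65% of all promoters, and AAGGTCA, in 4.72%, had no match in the 14. A match describes these letters only.

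Irs1 (ENSMUSG00000055980), the other main substrate, was 18.9, 20.8, 21.8 and 27 CPM in WT saline and 21.9, 13.6, 21.7 and 15.5 CPM in WT insulin livers (log2 fold change −0.28, SE 0.18, adjusted p = 0.46). In the knockout it was 15.9, 20.1, 12.1 and 11.9 CPM with saline and 18.6, 24.9 and 16.6 CPM with insulin (log2 fold change 0.41, SE 0.21, adjusted p = 0.341). The groups overlapped within each genotype, and the interaction, which met the criterion, was 0.70 ± 0.29 (SE) on the log2 scale with adjusted p = 0.543. Exons of Irs1 share 30.9% of their bases with Gm9747 on the other strand, and Gm9747 has 0 counts in every library. Gab1 (ENSMUSG00000031714), an adaptor that binds phosphoinositide 3-kinase, was 13.2, 11.7, 14.9 and 14.9 CPM in WT saline and 6.75, 13, 14.7 and 13.2 CPM in WT insulin livers. WT insulin replicate 1 was low and the others fell in the saline range (log2 fold change −0.20, SE 0.22, adjusted p = 0.702). Knockout livers had Gab1 from 11.0 to 12.7 CPM over both treatments (log2 fold change −0.01, SE 0.12, adjusted p = 0.983).

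Pik3r1 (ENSMUSG00000041417) encodes the p85α regulatory subunit that ties phosphoinositide 3-kinase to docking proteins. Its level was 104, 116, 103 and 111 CPM in WT saline and 85.3, 53.9, 64.8 and 59.7 CPM in WT insulin livers. Every insulin library lay below every saline library, and Pik3r1 fell 1.65-fold (log2 fold change −0.72, SE 0.15, adjusted p = 0.0248). The ERRα-/- livers held 106, 91.8, 80.8 and 98.4 CPM with saline and 54.5, 74.6 and 53.2 CPM with insulin. Again the groups did not overlap, and Pik3r1 fell 1.55-fold (log2 fold change −0.64, SE 0.14, adjusted p = 0.0422). The interaction was 0.09 ± 0.21 (SE) on the log2 scale with adjusted p = 0.931. In WT the call was lost without WT saline replicate 1, 2, 3 or 4 (adjusted p = 0.0662, 0.0645, 0.0622 and 0.0833) and without WT insulin replicate 3 or 4 (adjusted p = 0.0544 and 0.0847). The ERRα-/- call was lost without saline replicate 1, 2 or 4 (adjusted p = 0.0778, 0.0634 and 0.0915), without insulin replicate 1, 2 or 4 (adjusted p = 0.166, 0.0523 and 0.189) and with all 4 liver groups in one fit (adjusted p = 0.051). Its log2 fold change stayed between −0.87 and −0.54 when any 1 library was left out of either comparison.

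Akt2 (ENSMUSG00000004056), the AKT isoform most tied to glucose handling, was 143, 132, 129.5 and 128 CPM in WT saline and 131, 131, 114 and 112 CPM in WT insulin livers (log2 fold change −0.13, SE 0.11, adjusted p = 0.599). Akt2 in ERRα-/- livers was 151, 124, 130.4 and 152 CPM with saline and 108, 123 and 120 CPM with insulin (log2 fold change −0.25, SE 0.11, adjusted p = 0.277). The 3 insulin libraries of ERRα-/- mice lay below their 4 saline libraries, by a fold under 1.2, and the WT groups overlapped.

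Of the FoxO factors, Foxo1 (ENSMUSG00000044167) was 58.5, 82, 70.3 and 54.2 CPM in WT saline and 73.4, 37.5, 46 and 51.6 CPM in WT insulin livers (log2 fold change −0.34, SE 0.20, adjusted p = 0.413). The value was −0.22 without WT insulin replicate 2 and −0.56 without WT insulin replicate 1, the highest of its group. Foxo1 in ERRα-/- livers was 71.4, 60.5, 113 and 68.5 CPM with saline and 64.7, 78.7 and 73.2 CPM with insulin. The groups overlapped in both genotypes. ERRα-/- saline replicate 3, one of the libraries that stood apart, was the highest, and the log2 fold change was −0.12 with it and 0.11 without it. Foxo3 (ENSMUSG00000048756) was 87.7, 106, 90.3 and 106 CPM in WT saline and 106, 76.3, 61 and 57.8 CPM in WT insulin livers, where 3 of 4 insulin libraries lay below all saline libraries (log2 fold change −0.37, SE 0.18, adjusted p = 0.328). Without WT insulin replicate 1, the 1 that did not, it was −0.58, and Foxo1 and Foxo3 then met the criterion too. Foxo3 in ERRα-/- livers was 78.6, 79.8, 92.3 and 58.4 CPM with saline and 93.3, 155 and 107 CPM with insulin, and here all insulin libraries lay above all saline libraries (log2 fold change 0.61, SE 0.19, adjusted p = 0.119). With DESeq2 that adjusted p was 0.0309. Foxo3 had the smallest adjusted p among the members in the interaction, 0.98 ± 0.28 (SE) on the log2 scale with adjusted p = 0.422, which met the criterion and did not pass the adjusted test.

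Igfbp1 (ENSMUSG00000020429, chromosome 11, 7197782 to 7202546 on the plus strand) was 167, 199.6, 154 and 77.6 CPM in WT saline and 773, 1539, 301 and 442 CPM in WT insulin livers. Every insulin library lay above every saline library, with replicate 2 the highest, and Igfbp1 rose 5.11-fold (log2 fold change 2.35, SE 0.47, adjusted p = 0.0225). Without WT insulin replicate 2 the log2 fold change was 1.75 (adjusted p = 0.0303). The call was lost without WT saline replicate 1, 3 or 4 (adjusted p = 0.0743, 0.0675 and 0.0785). In ERRα-/- livers Igfbp1 was 883, 166, 1161 and 358 CPM with saline and 953, 2243 and 1522 CPM with insulin. The ERRα-/- saline livers spread widely, replicate 3 lying within the insulin range, and with edgeR the criterion was met without passing the adjusted test (log2 fold change 1.29, SE 0.53, adjusted p = 0.238). It was not met with DESeq2, nor without ERRα-/- saline replicate 4, ERRα-/- insulin replicate 2 or ERRα-/- insulin replicate 4. Without ERRα-/- saline replicate 3 the log2 fold change was 1.74. The interaction was −1.06 ± 0.78 (SE) on the log2 scale with adjusted p = 0.714. It was −0.47 without WT insulin replicate 2 and −0.61 without ERRα-/- saline replicate 3. The Igfbp1 promoter is printed because the gene is a FoxO target and rose in WT liver (RefSeq, GRCm38.p6, chr11:7197537-7197836, plus strand). The capitals mark a CAAAACA match that begins 108 bases before the start.
Igfbp1 promoter: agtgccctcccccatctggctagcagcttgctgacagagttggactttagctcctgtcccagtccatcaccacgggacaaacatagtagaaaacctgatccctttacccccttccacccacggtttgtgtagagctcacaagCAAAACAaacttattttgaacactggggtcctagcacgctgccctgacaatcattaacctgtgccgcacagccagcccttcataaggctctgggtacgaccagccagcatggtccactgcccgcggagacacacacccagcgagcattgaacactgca

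**Figure D2:**
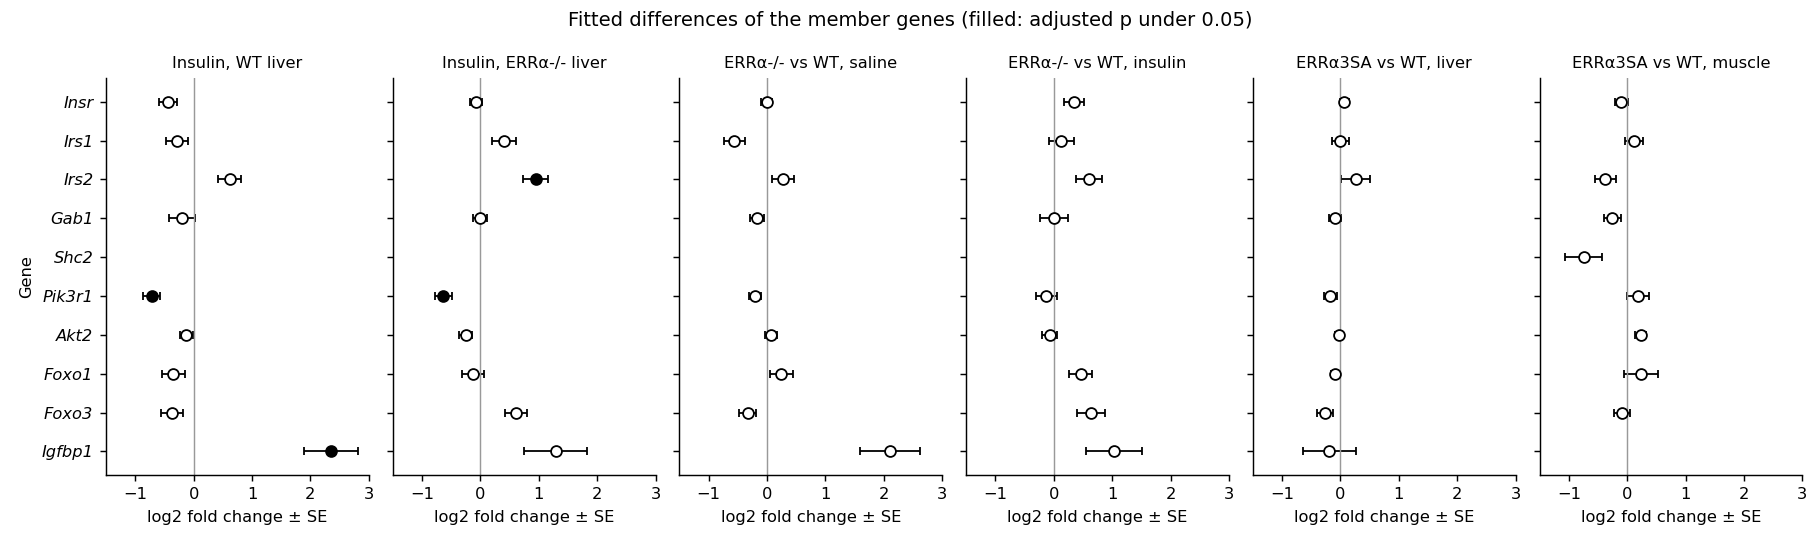
Fitted log2 fold change with SE for each member in 6 pairwise comparisons, filled where the adjusted p was under 0.05. Filled points are Igfbp1 and Pik3r1 for insulin in WT liver and Irs2 and Pik3r1 for insulin in ERRα-/- liver. Values of Shc2 in liver with an SE above 1, and members that were not tested, are left out.

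The wider pathway was read from lists chosen by role. Of 31 receptor and adaptor genes, 27 were tested for insulin in WT liver and edgeR called 0, with 7 at an unadjusted p under 0.05 and 3 called by DESeq2 (Irs2, Grb10, Ptprf). Of all 13463 genes, 2353 had an unadjusted p under 0.05, edgeR called 425 and DESeq2 called 942. The smallest p values there belonged to Ptprf, a receptor phosphatase (−0.60 ± 0.17, adjusted p = 0.0955, as log2 fold change ± SE), and Grb10, an inhibitory adaptor (1.10 ± 0.34, adjusted p = 0.119). In ERRα-/- liver edgeR called 4 of 27, all upward, and DESeq2 called 5, these 4 upward and Ptprf downward, beside 398 and 1013 of all 13684 genes. The 4 were Irs2, Socs2, a suppressor of cytokine signaling (1.37 ± 0.25, adjusted p = 0.0196), Grb7 (0.52 ± 0.12, adjusted p = 0.0395) and Gab2, a relative of Gab1 (0.92 ± 0.21, adjusted p = 0.046). Among 34 PI3K and AKT genes, all tested, insulin raised 1 and lowered 3 in WT liver by edgeR (2 and 4 by DESeq2), with a median log2 fold change of −0.04 against 0.00 over all genes tested. Besides Pik3r1 these were the AKT phosphatase Phlpp1 (−0.81 ± 0.14, adjusted p = 0.0129), the phosphatase catalytic subunit Ppp2ca (0.52 ± 0.10, adjusted p = 0.0226) and Deptor, an mTOR inhibitor (−0.77 ± 0.16, adjusted p = 0.0262). By edgeR, insulin in ERRα-/- liver raised 2 of the 34, Tsc1 (0.98 ± 0.14, adjusted p = 0.00758) and Pdpk1, the kinase that phosphorylates AKT (0.54 ± 0.09, adjusted p = 0.0171), and lowered 1, Pik3r1, while DESeq2 called 5 upward and 2 downward.

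Of the 4 FoxO factors 3 were tested and edgeR called 0 in either genotype, with 0 at an unadjusted p under 0.05 in WT and 1, Foxo3, in ERRα-/- liver. DESeq2 called 0 in WT and that same 1 in ERRα-/- liver. Foxo4 in ERRα-/- liver gave −0.10 ± 0.14 (adjusted p = 0.773) as log2 fold change ± SE. Of the list of 32 genes associated with FoxO, 31 were tested in WT liver. EdgeR called 6, all upward, while DESeq2 called 9 upward and 3 downward, Pck1 among the latter, and the criterion was met by 14 upward and 4 downward. Of all 13463 genes, edgeR called 425, DESeq2 called 942 and 2322 met the criterion. Over the tested genes the median log2 fold change was 0.24 against 0.00 over all genes tested. Of 30 tested in ERRα-/- liver, edgeR called 8 and DESeq2 10, all upward, and the criterion was met by 13 upward and 1 downward, beside 398, 1013 and 2353 of all 13684 genes. The list's median was 0.31 against −0.02 over all genes tested. The cell cycle inhibitor gene Cdkn1a averaged 16.8 ± 9.81 (SD) CPM with saline and 179.5 ± 66.8 CPM with insulin in WT liver (log2 fold change 3.42 ± 0.43, adjusted p = 0.0028). On the log2 scale Txnip, which restrains glucose uptake, rose by 0.96 ± 0.17 (adjusted p = 0.0131) and the coregulator gene Cited2 by 1.05 ± 0.19 (adjusted p = 0.015). In ERRα-/- liver, on the same scale, Ccng2 rose by 1.21 ± 0.14 (adjusted p = 0.00443), Sesn1 by 1.71 ± 0.21 (adjusted p = 0.00502) and the ubiquitin ligase gene Fbxo32 by 1.37 ± 0.21 (adjusted p = 0.0109). The list holds Igfbp1, Irs2 and Insr too.

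In the IGF axis list of 13 genes, all tested, insulin in WT liver raised Igfbp1 and lowered Igfals, which encodes a carrier subunit of circulating IGF complexes, −0.72 ± 0.17 (adjusted p = 0.0493). In ERRα-/- liver edgeR and DESeq2 each called 0 of 13, with 2 at an unadjusted p under 0.05, Igfbp1 and Igfbp2 (0.47 ± 0.20, adjusted p = 0.245), beside 2430 of all 13684 genes. For the interaction edgeR and DESeq2 each called 0 genes of each list, and the unadjusted count was 6 of 29 receptor and adaptor genes, 8 of 34 PI3K and AKT genes, 1 of 4 FoxO factors, 9 of 31 FoxO-associated genes and 0 of 13 IGF axis genes, beside 1289 of all 14670 genes. Besides members, the leading genes by list were Enpp1 (0.51 ± 0.17, adjusted p = 0.461), Dok1 (1.77 ± 0.61, adjusted p = 0.492), Rictor (0.73 ± 0.20, adjusted p = 0.422) and Deptor (0.79 ± 0.23, adjusted p = 0.422). Also leading were Cdkn1a (−2.26 ± 0.62, adjusted p = 0.422), Igfbp7 (−0.34 ± 0.17, adjusted p = 0.597) and Igfbp5 (0.99 ± 0.55, adjusted p = 0.62). Foxo1 gave 0.23 ± 0.30 (adjusted p = 0.858) for the interaction, 0.46 without ERRα-/- saline replicate 3 and 0.10 without WT insulin replicate 2. Beside these insulin results in WT liver, the summed level of 6 adipocyte markers was 33, 50.1, 18.2 and 14.1 CPM with saline and 107, 58, 75.9 and 92.8 CPM with insulin. Cidec made up nearly all of that sum and Lep was at 0 in 6 of the 8 WT libraries. The summed level of 6 slow fiber markers, nearly all Atp2a2, was 281, 294, 276 and 259 CPM with saline and 692, 369, 335 and 382 CPM with insulin, with Tnni1 at 0 in 7 of the 8. The part of these marker levels in the results was not tested. In bulk tissue, fewer cells of a type and less RNA per cell cannot be told apart.

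ERRα-/- and WT livers were compared under each injection to ask whether the receptor's absence alone shifts these genes. The comparisons reuse the groups of the insulin comparisons and share their libraries. With saline, edgeR called 0 of 9 members, 0.0816% of all genes (11 of 13481), and 3 members had an unadjusted p under 0.05. The criterion was met by these 3, Irs1, Foxo3 and Igfbp1, and by 11.3% of all genes. Foxo3 did not meet it without ERRα-/- saline replicate 1, 2 or 4 or without WT saline replicate 2 or 4. It also did not with all groups in one fit. For Igfbp1, 3 of the 4 ERRα-/- saline livers lay above all 4 WT saline livers (log2 fold change 2.10, SE 0.51, adjusted p = 0.181), and without replicate 3 the value was 1.65. DESeq2 called this 1 member (adjusted p = 0.0227), and edgeR called it without ERRα-/- saline replicate 2 (adjusted p = 0.0352). That replicate, at 165.9 CPM, was the one within the WT range. Irs1 gave log2 fold change −0.56, SE 0.18, adjusted p = 0.255, and Foxo3 gave −0.33 ± 0.14 (adjusted p = 0.362). Insr differed by −0.01 ± 0.09 (adjusted p = 0.984), Irs2 by 0.27 ± 0.19 (adjusted p = 0.609), Pik3r1 by −0.20 ± 0.11 (adjusted p = 0.475), and Foxo1 by 0.24 ± 0.20 (adjusted p = 0.67). The Foxo1 value was 0.01 without ERRα-/- saline replicate 3, the highest library. Gab1 and Akt2 gave −0.18 ± 0.12 (adjusted p = 0.591) and 0.06 ± 0.10 (adjusted p = 0.86).

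With insulin, edgeR and DESeq2 each called 0 of 10 members, edgeR called 0.0585% of all genes (8 of 13665), and 3 members had an unadjusted p under 0.05. These were Irs2, Foxo1 and Foxo3, each higher in ERRα-/- livers, and they met the criterion with 9.99% of all genes. The log2 fold change was 0.64 ± 0.23 (adjusted p = 0.383) for Foxo3, 0.60 ± 0.22 (adjusted p = 0.379) for Irs2 and 0.46 ± 0.20 (adjusted p = 0.485) for Foxo1, which was 0.33 without WT insulin replicate 2. Without ERRα-/- insulin replicate 2 the members meeting the criterion were 0, without ERRα-/- insulin replicate 4 they were 1 (Foxo3), and without WT insulin replicate 4 they were 1 (Irs2). Igfbp1 gave 1.03 ± 0.48 (adjusted p = 0.505) with overlapping groups. Without WT insulin replicate 2 it gave 1.63 (adjusted p = 0.112), and the members meeting the criterion were Foxo3, Igfbp1 and Irs2. For Insr the 3 ERRα-/- insulin livers lay above all 4 WT insulin livers, 0.34 ± 0.17 (adjusted p = 0.542). The value was 0.21 without WT insulin replicate 2 and 0.44 without WT insulin replicate 3. Without replicate 3 the members meeting the criterion were Insr and Irs2. Insr also met it with all groups in one fit and with the replicate number as a block.

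No gene of the 5 lists was called by edgeR between genotypes. With saline the unadjusted count was 7 of 26 receptor and adaptor genes, 7 of 34 PI3K and AKT genes, 1 of 3 FoxO factors, 7 of 31 FoxO-associated genes and 4 of 13 IGF axis genes, where DESeq2 called 1, 0, 0, 2 and 1. Of all 13481 genes, 1625 had an unadjusted p under 0.05 and DESeq2 called 254. In the receptor and adaptor list the smallest p values belonged to Socs3, which encodes an inhibitor of receptor signaling (1.73 ± 0.46, adjusted p = 0.205), and Ptprf (−0.35 ± 0.10, adjusted p = 0.232). The PI3K and AKT list was led by the lipid phosphatase gene Inppl1 (−0.39 ± 0.12, adjusted p = 0.239) and Deptor (−0.45 ± 0.14, adjusted p = 0.239). Igfbp1 had the smallest p value of both the FoxO-associated and the IGF axis list. Next to it came Cdkn1a (1.73 ± 0.47, adjusted p = 0.214) in the former and Igfbp7 (0.34 ± 0.11, adjusted p = 0.251) in the latter. With insulin the unadjusted counts were 2 of 28, 4 of 34, 2 of 3, 6 of 30 and 1 of 13 in the same order of lists, and the DESeq2 counts were 1, 0, 0, 3 and 0, beside 1371 and 248 of all 13665 genes. Besides members, the leading genes were Socs3 (0.86 ± 0.23, adjusted p = 0.218), Rictor (0.52 ± 0.14, adjusted p = 0.235) and Pik3ca, the catalytic subunit gene (0.43 ± 0.16, adjusted p = 0.388). Also leading were Pck1 (0.77 ± 0.15, adjusted p = 0.164), Igfbp2 (0.50 ± 0.18, adjusted p = 0.356) and Igf2 (−1.65 ± 0.76, adjusted p = 0.499). Pck1 averaged 3140 ± 557 (SD) CPM in WT insulin and 5379 ± 282 CPM in ERRα-/- insulin livers, without overlap.

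Across the 15 livers of the insulin experiment, which span both genotypes and both injections, the gene with the highest Pearson r to Igfbp1 among 13306 in log2 CPM was Eif4a1, a translation initiation factor gene (r = 0.962, Spearman rho = 0.961). Lurap1l (r = 0.961, rho = 0.968) and the amino acid catabolism gene Tat (r = 0.951) followed. Without the 2 livers farthest from the Igfbp1 median, WT saline replicate 4 and ERRα-/- insulin replicate 2, r was 0.944, 0.947 and 0.923. By Pearson r the closest to Irs2 were Rabgef1 (r = 0.865), Mrps31 (r = 0.857) and Usp1 (r = 0.852), and r was 0.822, 0.841 and 0.773 without ERRα-/- insulin replicates 2 and 4. By the same measure Foxo1 was closest to Jak1 (r = 0.915), Snrnp200 (r = 0.912) and Patj (r = 0.872), and r was 0.873, 0.842 and 0.923 without WT insulin replicate 2 and ERRα-/- saline replicate 3. Among the members, Irs2 and Igfbp1 varied together (r = 0.759), as did Pik3r1 and Akt2 (r = 0.686), while Pik3r1 ran opposite to Irs2 (r = −0.672) and to Igfbp1 (r = −0.65). These correlations describe 15 libraries that share their groups.

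**Figure D3:**
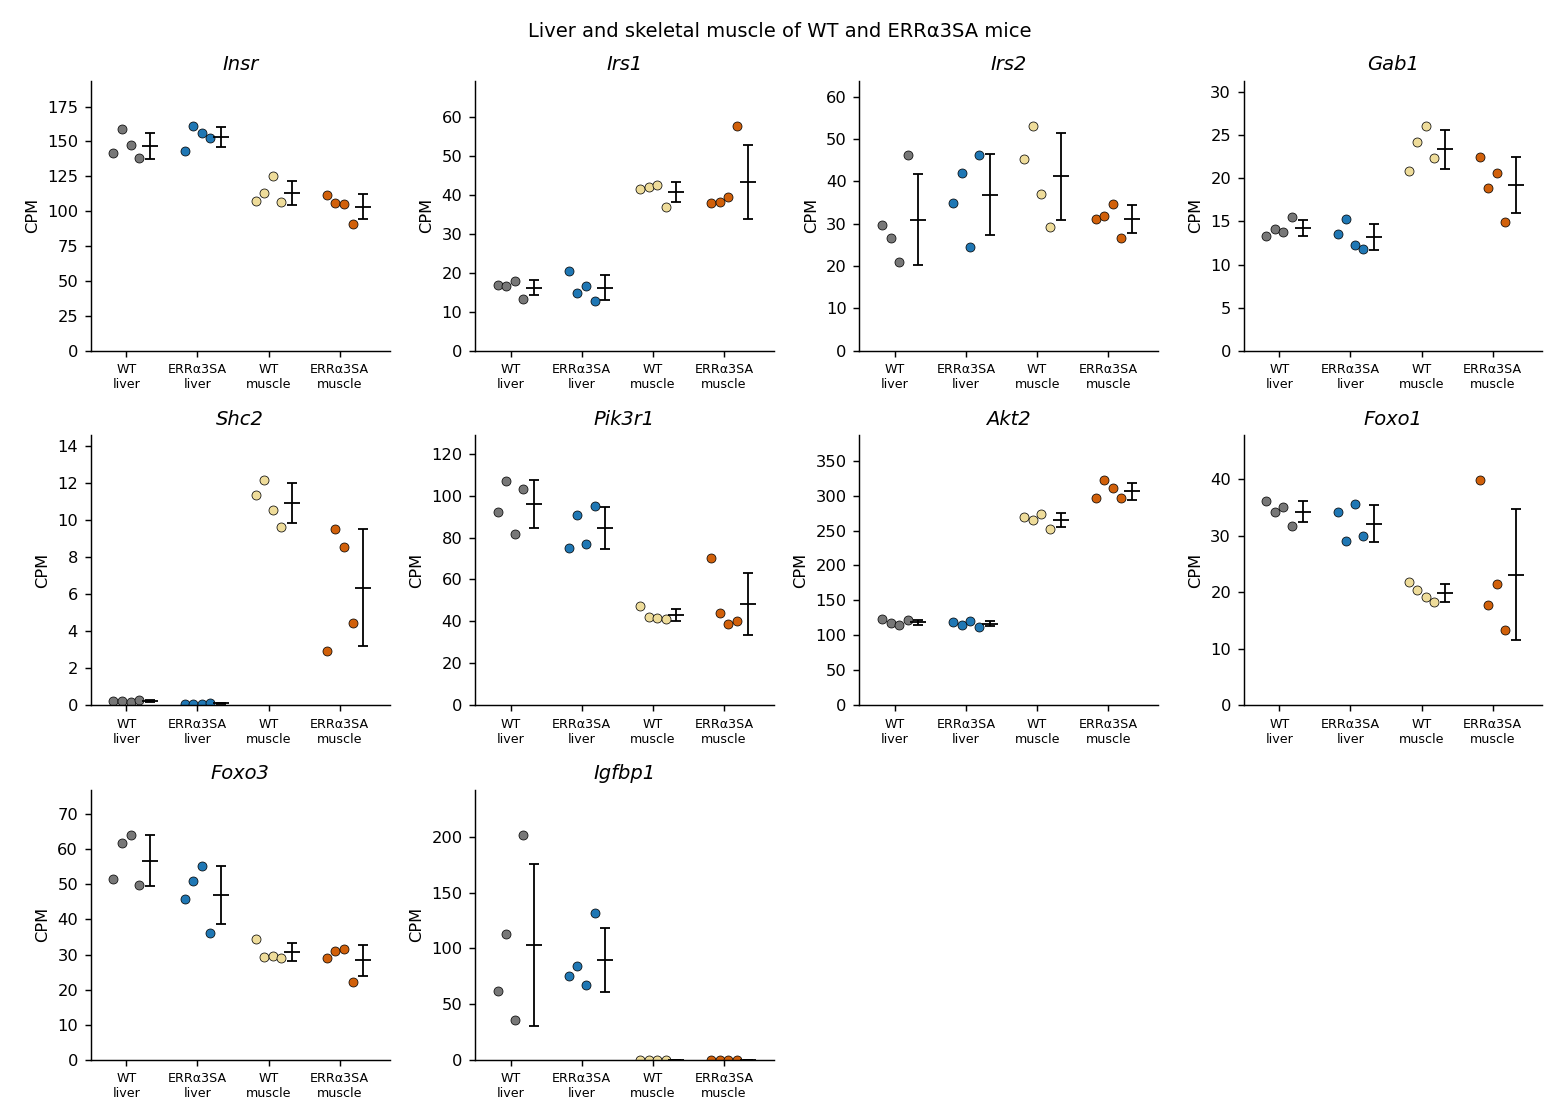
Level of the 10 members (CPM) in each liver and muscle of the ERRα3SA experiment, one point per library, with group mean and SD. Akt2, Irs1, Gab1 and Shc2 are higher in muscle, Igfbp1 is at 0 in all 8 muscles, and within a tissue the genotypes overlap for most genes.

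The ERRα3SA mice address whether the 3 serines of ERRα bear on these genes in liver and muscle without an injection. In liver, edgeR and DESeq2 each called 0 of 9 tested members, and 0 had an unadjusted p under 0.05, so 0 met the criterion. Of all 13339 genes edgeR called 0%, DESeq2 called 43, 996 had an unadjusted p under 0.05 and 4.88% met the criterion. Igfbp1 was 61.9, 112, 35.8 and 202 CPM in WT and 75.5, 84, 66.9 and 132 CPM in ERRα3SA livers. The groups overlapped fully, and the log2 fold change was −0.20 with all libraries, 0.36 without WT replicate 4, the highest, and −0.45 without ERRα3SA replicate 4. Irs2 was 29.8, 26.7, 21 and 46.2 CPM in WT and 34.9, 42.1, 24.4 and 46.1 CPM in ERRα3SA livers (log2 fold change 0.26, SE 0.25, adjusted p = 0.827), and the value was 0.13 without ERRα3SA replicate 4. Foxo3 was 51.6, 61.7, 64.1 and 49.7 CPM in WT and 46, 50.9, 55.2 and 36 CPM in ERRα3SA livers (log2 fold change −0.27, SE 0.13, adjusted p = 0.706), and the value was −0.16 without ERRα3SA replicate 4, the lowest. Without WT replicate 4 the members meeting the criterion were 2 (Irs2, Foxo3), and without ERRα3SA replicate 3 they were 1 (Foxo3). Insr was 142, 159, 147 and 138 CPM in WT and 143, 161, 156 and 153 CPM in ERRα3SA livers, with overlap. Log2 fold changes of the other tested members were −0.18 ± 0.11 (adjusted p = 0.749) for Pik3r1, −0.09 ± 0.08 (adjusted p = 0.821) for Foxo1, −0.10 ± 0.10 (adjusted p = 0.836) for Gab1, −0.03 ± 0.06 (adjusted p = 0.922) for Akt2 and −0.00 ± 0.14 (adjusted p = 0.996) for Irs1. Shc2 had 7, 6, 4 and 6 counts in WT and 2, 2, 1 and 3 in ERRα3SA livers, which do not overlap, and was not tested.

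Of the lists in ERRα3SA liver, edgeR called 0 genes. The unadjusted count was 0 of 27 receptor and adaptor genes, 1 of 34 PI3K and AKT genes, 0 of 3 FoxO factors, 4 of 30 FoxO-associated genes and 1 of 12 IGF axis genes, beside 996 of all 13339 genes, and DESeq2 called 1 gene, Cdkn1a. By list, the smallest p values were those of the adaptors Sh2b2 (−0.53 ± 0.28, adjusted p = 0.72) and Gab2 (0.41 ± 0.25, adjusted p = 0.749). In the PI3K and AKT list they were those of the regulatory subunit gene Pik3r3 (0.47 ± 0.14, adjusted p = 0.564) and Pdpk1 (0.12 ± 0.06, adjusted p = 0.713). Foxo3 led the FoxO factors, followed by Foxo4 (−0.12 ± 0.07, adjusted p = 0.753). The IGF axis list was led by Igfbp2 (−0.64 ± 0.25, adjusted p = 0.639) and Igfbp6 (0.64 ± 0.36, adjusted p = 0.737). Those leading the FoxO-associated genes were Cdkn1a and Bcl6. Cdkn1a averaged 10.1 ± 3.78 (SD) CPM in WT and 21.1 ± 4.44 CPM in ERRα3SA livers (log2 fold change 1.07 ± 0.27, adjusted p = 0.528). The repressor gene Bcl6 averaged 9.97 ± 4.17 CPM and 43.2 ± 29.9 CPM (log2 fold change 2.12 ± 0.55, adjusted p = 0.528).

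In muscle, edgeR and DESeq2 each called 0 of 9 tested members, and 2, Shc2 and Akt2, had an unadjusted p under 0.05. Of the 2, only Shc2 met the criterion, as did 4.54% of all genes. Of all 14081 genes edgeR called 0%, DESeq2 called 56, and 672 had an unadjusted p under 0.05. Without ERRα3SA replicate 1, the library with many mitochondrial counts, edgeR called 464 of all genes and 0 members.

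Shc2 (ENSMUSG00000020312), an adaptor of the Shc family known mainly from neural tissue, was 11.3, 12.1, 10.5 and 9.63 CPM in WT muscle and 2.92, 9.51, 8.54 and 4.44 CPM in ERRα3SA muscle, from 323, 307, 278 and 252 and 52, 288, 264 and 139 counts. All 4 ERRα3SA libraries lay below all 4 WT libraries, with replicates 1 and 4 far below replicates 2 and 3 (log2 fold change −0.75, SE 0.32, adjusted p = 0.9996). Without ERRα3SA replicate 1 the log2 fold change was −0.51 (adjusted p = 0.194), and the members meeting the criterion were 2, Gab1 and Shc2, beside 2506 of 14363 genes. They were 0 without WT replicate 1, 2 or 3 or ERRα3SA replicate 4. Of genes expressed in peripheral nerve, Mbp averaged 66.2 ± 11.1 (SD) CPM in WT and 33.9 ± 11.9 CPM in ERRα3SA muscle (log2 fold change −0.93 ± 0.26, adjusted p = 0.773), and Pmp22 averaged 110.4 ± 18.3 and 61 ± 7.22 CPM (log2 fold change −0.83 ± 0.15, adjusted p = 0.301). Both met the criterion and neither passed the adjusted test. The part of nerve content in the Shc2 difference was not tested.

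Irs2 was 45.2, 53.1, 37.1 and 29.3 CPM in WT and 31.1, 31.8, 34.8 and 26.7 CPM in ERRα3SA muscle. WT replicates 1, 2 and 3 lay above the ERRα3SA libraries and WT replicate 4 fell among them (log2 fold change −0.38, SE 0.18, adjusted p = 0.9996). Gab1 was 20.8, 24.2, 26.1 and 22.3 CPM in WT and 22.4, 18.9, 20.7 and 14.9 CPM in ERRα3SA muscle, with replicate 4 the lowest and overlapping groups (log2 fold change −0.26, SE 0.14, adjusted p = 0.9996). Without ERRα3SA replicate 1 it gave −0.33 (adjusted p = 0.137) and Irs2 gave −0.37 (adjusted p = 0.247). Irs1 was 41.5, 42.1, 42.6 and 36.9 CPM in WT and 38, 38.1, 39.4 and 57.7 CPM in ERRα3SA muscle. Replicate 4 alone stood high there, and the log2 fold change was 0.12 with it and −0.06 without it. The same library held 78.9 CPM of 6 macrophage markers, against 24.2 to 30.2 CPM in the other ERRα3SA muscles, with Csf1r the most abundant and Clec4f at 0 in all 4. Its 6 stellate and fibroblast markers, led by Col3a1 with none at 0, summed to 3483 CPM against 1308 to 1835 CPM. Its 6 lymphocyte markers, nearly all Ptprc, summed to 15.4 CPM against 3.49 to 5.12 CPM. Its 6 skeletal muscle markers summed to 81580 CPM, the lowest of the group. The part of these cells was not tested. Insr was 107, 113, 125 and 106 CPM in WT and 111, 106, 105 and 90.6 CPM in ERRα3SA muscle (log2 fold change −0.10, SE 0.11, adjusted p = 0.9996).

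Akt2 was 270, 265, 273 and 252 CPM in WT and 296, 322, 310.3 and 296 CPM in ERRα3SA muscle. All 4 ERRα3SA libraries lay above all 4 WT libraries, by a fold under the 1.2 of the criterion (log2 fold change 0.23, SE 0.10, adjusted p = 0.9996). Without ERRα3SA replicate 1 the value was 0.26 (adjusted p = 0.0557). Pik3r1 was 47.4, 42.1, 41.6 and 41.1 CPM in WT and 70.3, 44, 38.6 and 40 CPM in ERRα3SA muscle. For Foxo1 the levels were 21.9, 20.5, 19.2 and 18.2 CPM in WT and 39.8, 17.7, 21.5 and 13.4 CPM in ERRα3SA muscle. Both genes were highest in ERRα3SA replicate 1, and their log2 fold changes of 0.19 and 0.23 became −0.04 and −0.15 without it. Foxo3 was 34.5, 29.3, 29.7 and 29.1 CPM in WT and 28.9, 30.9, 31.7 and 22 CPM in ERRα3SA muscle, with overlapping groups (log2 fold change −0.09, SE 0.13, adjusted p = 0.9996). Igfbp1 had 0 counts in all 8 muscles, which allows at most 0.169 CPM in the shallowest library (3 counts per library, counting error only).

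Among the lists in muscle edgeR and DESeq2 each called 0 genes, and the unadjusted count was 2 of 29 receptor and adaptor genes, 1 of 34 PI3K and AKT genes, 0 of 4 FoxO factors, 1 of 29 FoxO-associated genes and 0 of 11 IGF axis genes, beside 672 of all 14081 genes. Grb10 averaged 48.4 ± 2.46 (SD) CPM in WT and 39.4 ± 3.29 CPM in ERRα3SA muscle without overlap (log2 fold change −0.27 ± 0.10, adjusted p = 0.9996). Other leading genes were Rheb, an activator of mTOR (0.20 ± 0.09, adjusted p = 0.9996), Foxo6 (−0.65 ± 0.35, adjusted p = 0.9996), Gadd45a (0.61 ± 0.21, adjusted p = 0.9996), Pdk4, which restrains pyruvate oxidation (0.65 ± 0.30, adjusted p = 0.9996), Igfbp7 (0.35 ± 0.16, adjusted p = 0.9996) and Igfbp6 (−0.24 ± 0.24, adjusted p = 0.9996).

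Whether the ERRα3SA difference varied by tissue was tested as an interaction. EdgeR and DESeq2 each called 0 of 9 members, and 0 had an unadjusted p under 0.05 or met the criterion. Of all 15688 genes edgeR called 0%, DESeq2 called 25, 881 had an unadjusted p under 0.05 and 5.57% met the criterion. Irs2 gave −0.66 ± 0.33 (SE) on the log2 scale with adjusted p = 0.929, and Akt2 gave 0.24 ± 0.12 (adjusted p = 0.896). For Foxo1 the value was 0.30 with all libraries and −0.10 without ERRα3SA muscle replicate 1, and all genes called were then 369. The members meeting the criterion were 2 (Irs2, Akt2) without ERRα3SA liver replicate 3. They were 1 (Irs2) without WT liver replicate 4 or WT muscle replicate 4, and 1 (Akt2) without WT muscle replicate 3 or ERRα3SA muscle replicate 4. From the lists, where edgeR and DESeq2 each called 0 genes and 1 of 30 FoxO-associated genes had an unadjusted p under 0.05, beside 881 of all 15688 genes, Bcl6 gave −2.08 ± 0.62 (adjusted p = 0.656), Gadd45b −1.35 ± 0.66 (adjusted p = 0.908), Ceacam1 0.24 ± 0.13 (adjusted p = 0.941), Pik3r3 −0.46 ± 0.24 (adjusted p = 0.941), Foxo6 −1.41 ± 1.47 (adjusted p = 1), Igfbp6 −0.89 ± 0.44 (adjusted p = 0.919) and Igfbp7 0.35 ± 0.18 (adjusted p = 0.941). Igfbp1 could not be fitted because it is at 0 in muscle.

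Between WT muscle and WT liver, a contrast of tissues rather than of signaling, 9 of 10 members passed the test, 4 higher and 5 lower in muscle, as did 86.5% of all genes (12874 of 14886). The members' share is near that of all genes. Higher in muscle were Shc2 (5.60 ± 0.18, adjusted p = 1.33e-12, as log2 fold change ± SE), Irs1 (1.36 ± 0.09, adjusted p = 4.37e-09), Akt2 (1.19 ± 0.06, adjusted p = 1.78e-10) and Gab1 (0.75 ± 0.09, adjusted p = 1.33e-06). Lower in muscle were Pik3r1 (−1.12 ± 0.09, adjusted p = 1.77e-08), Foxo3 (−0.85 ± 0.09, adjusted p = 7.64e-07), Foxo1 (−0.75 ± 0.08, adjusted p = 5.12e-07), Insr (−0.34 ± 0.07, adjusted p = 3.87e-04) and Igfbp1, which was at least 910-fold lower. Irs2 did not pass (0.45 ± 0.21, adjusted p = 0.0592), but did without WT liver replicate 4 (adjusted p = 0.00255) or WT muscle replicate 4 (adjusted p = 0.0286), with DESeq2 size factors in place of TMM (adjusted p = 0.0498) and with no filter on low counts (adjusted p = 0.00137). In WT muscle Akt2 led the order per kb with 37.2 ± 1.33 (SD) CPM per kb. Insr at 8.21 ± 0.629, Irs2, Gab1, Irs1, Pik3r1 and Foxo3 at 4.05 ± 0.343 CPM per kb followed, each overlapping its neighbour in the order. Foxo1 at 2.30 ± 0.185 and Shc2 at 2.01 ± 0.198 CPM per kb came last before Igfbp1.

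Of the lists, 26 of 29 receptor and adaptor genes differed between the tissues (15 up and 11 down in muscle), 30 of 34 PI3K and AKT genes (22 and 8), 4 of 4 FoxO factors (2 and 2), 30 of 32 FoxO-associated genes (18 and 12) and 13 of 13 IGF axis genes (5 and 8). Of all 14886 genes, 12874 (86.5%) differed. Ceacam1, which encodes a receptor substrate tied to insulin clearance, averaged 232 ± 6.18 (SD) CPM in liver and 5.06 ± 0.502 CPM in muscle. Ptprf averaged 324 ± 23.3 and 5.23 ± 0.601 CPM, and Grb7 137 and 0.0570 CPM. Inppl1 was 35.1 CPM in liver and 135 CPM in muscle, and Inpp4b 0.678 and 28.4 CPM. Both encode phosphatases of inositol lipids. Foxo4 was 37.6 CPM in liver and 174 CPM in muscle, and Foxo6 0.0206 and 8.83 CPM. The muscle atrophy ligase genes Trim63 and Fbxo32 reached 221 and 534 CPM in muscle, while the apolipoprotein gene Apoc3 reached 1779 CPM in liver. In the IGF axis Igfbp4 was 1252 CPM in liver and 52.3 CPM in muscle, Igf1 639.6 and 27.7 CPM, and Igfals 121 and 2.97 CPM.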

How the data were processed

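The values are gene counts as the authors deposited them: paired-end reads, aligned by the authors to mm10 with STAR, which counted reads per gene. The labels do not say whether counting used the strand. From these counts edgeR computed CPM with TMM factors per experiment and quasi-likelihood tests after filterByExpr, with only a comparison's groups in the fit and Benjamini-Hochberg adjustment over all genes tested. Log2 CPM used a prior count of 2. A gene was called at adjusted p under 0.05. Symbols, positions and exon lengths are from GENCODE vM21, which lacked 785 and 37 of the gene IDs. The 2 muscle names in labels and file (3A and SA) were taken as 1 group.

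Named genes were the members, Esrra, the 3 insulin check genes, per list and comparison up to 3 called genes with the smallest p (or 2 where none was called), and the 3 genes most correlated with Igfbp1, Irs2 and Foxo1. Deptor in WT liver was named after its values were seen, as 1 of 4 called. The members and the lists (5 of pathway genes, 12 of cell markers: hepatocyte, skeletal muscle, slow fiber, macrophage, endothelial, stellate and fibroblast, cholangiocyte, lymphocyte, adipocyte, erythroid, nerve, exocrine pancreas) were chosen with earlier results of these data known. Some genes of these lists, and sums over the nerve list, are not reported here; list counts include them.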

Additional observations from a re-analysis of the deposited data

Results flagged for a closer look

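In groups of 4 libraries, 71 sets of values were examined for a library far from the other 3, and 8 had one. Chance alone gives about 1 in 20. The share of counts on mitochondrial genes was far from its group in ERRα3SA muscle replicate 1 (19.32% against 9.146 to 9.846%), WT insulin liver replicate 2 (1.88% against 3.88 to 4.165%) and ERRα-/- saline liver replicate 3 (3.914% against 3.156 to 3.211%). Pik3r1 in ERRα3SA muscle replicate 1 was 70.31 CPM against 38.59 to 43.95 CPM. Irs1 in ERRα3SA muscle replicate 4 was 57.69 CPM against 38.02 to 39.4 CPM. In WT muscle replicate 1, Pik3r1 was 47.43 CPM against 41.14 to 42.15 CPM and Foxo3 was 34.54 CPM against 29.15 to 29.67 CPM. Insr in WT saline liver replicate 2 was 253.9 CPM against 223.8 to 228.0 CPM.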

How the results depend on the processing

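Over 84 results for single members and 1192 values under other settings, 1152 kept their side of the threshold. Each of these kept its sign or, where the sign differed, moved by less than the SE of the main fit. A further 22 lost a call, 11 gained one, 7 changed sign by at least that SE without a call in either setting, and none turned a called direction. A change of size without a change of sign or call was not counted as a move. In 35 values, called in neither setting, the sign differed. With DESeq2 in place of edgeR, 1 member was called between genotypes with saline (Igfbp1), beside 254 of 13481 genes. With all groups in one fit, 1 member was called for insulin in ERRα-/- liver (Irs2), beside 262 of 14670 genes. In that setting 2 met the criterion in ERRα3SA muscle (Gab1, Shc2), beside 1013 of 15688 genes. With no filter on low counts, the members meeting the criterion were 1 in ERRα3SA liver (Foxo3), 2 in ERRα3SA muscle (Irs2, Shc2) and 1 for the tissue interaction (Irs2). All genes meeting it were then 1050 of 24454, 1071 of 26464 and 1257 of 29147 in the same order. The cause was not tested.

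With the replicate number as a replicate block, 2 members met the criterion in ERRα3SA liver (Irs2, Foxo3), beside 656 of 13339 genes. Foxo3 was called for insulin in ERRα-/- liver (adjusted p = 0.0496), beside 514 of 13684 genes. Irs2 was called between WT tissues (adjusted p = 0.0297), beside 12782 of 14886 genes. Foxo1 for insulin in ERRα-/- liver gave 0.11. Whether equal numbers pair animals is not given in the labels, and libraries of the same number correlated from −0.181 to 0.241.

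Leaving out 1 library at a time, the members called ran from 0 to 2 for insulin in WT liver, 0 to 2 for insulin in ERRα-/- liver, 0 to 1 between genotypes with saline and 9 to 10 between WT tissues, and were 0 in the other comparisons. Members meeting the criterion ran from 4 to 6 for insulin in WT, 2 to 6 for insulin in ERRα-/-, 2 to 3 and 0 to 3 between genotypes with saline and insulin, 1 to 3 for their interaction, and 0 to 2 in ERRα3SA liver, in ERRα3SA muscle and for the tissue interaction. All genes meeting it ran from 1796 to 2511 and 1729 to 2480 for insulin in WT and ERRα-/- liver. Between genotypes they ran from 1284 to 1984 with saline and 818 to 1778 with insulin, and for the interaction from 886 to 1569. In ERRα3SA liver they ran from 507 to 892, in ERRα3SA muscle from 378 to 2506, and for the tissue interaction from 710 to 2766. All genes called ran from 105 to 409 for insulin in WT, 42 to 608 for insulin in ERRα-/-, 2 to 47 and 3 to 48 between genotypes, and 0 to 464 in ERRα3SA muscle. DESeq2 called 942 and 1013 genes for insulin in WT and ERRα-/- liver and 254 and 248 between genotypes. Shc2 had at most 23 counts per library in liver, and what difference could be detected at such counts was not tested.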

Other observations

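Markers of other cell types were summed in each library. In livers, exocrine pancreas markers (5 genes) were 916, 41.9, 4.02 and 1216 CPM in WT saline, 13.4, 82.9, 6.76 and 149.7 CPM in WT insulin, 218, 25.8, 4.13 and 105 CPM in ERRα-/- saline and 8.64, 5.68 and 6.21 CPM in ERRα-/- insulin livers, with Amy2a5 at 0 in all 15. In ERRα3SA livers they were 529, 35.4, 24.8 and 43.1 CPM and in their WT livers 140, 39.2, 57.9 and 49.3 CPM. Over all livers the summed ranges were 142 to 404 CPM for macrophage markers, 119 to 225 CPM for endothelial markers, 126 to 228 CPM for stellate and fibroblast markers and 4.93 to 14.7 CPM for cholangiocyte markers. Lymphocyte markers ran from 3.55 to 14.1 CPM and erythroid markers from 150 to 449 CPM. In muscles, endothelial markers ran from 226 to 327 CPM, cholangiocyte markers from 2.80 to 8.18 CPM, lymphocyte markers from 3.49 to 15.4 CPM, adipocyte markers from 66.9 to 139 CPM, erythroid markers from 77.4 to 156 CPM and slow fiber markers from 1982 to 3814 CPM. The part of these cells in any result was not tested.

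The exons of Foxo1 share 7.78% of their bases with Gm20402 on the other strand (0 to 1 counts), those of Gab1 5.23% with Gm31105 (1 to 76 counts), those of Irs2 2.56% with 9530052E02Rik (0 to 10 counts) and those of Shc2 1.16% with Gm47163 (0 to 9 counts).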
